A study of Capsicum annuum with 78 samples.

Results

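The genes described here are 150 pepper genes whose transcript level was raised by methyl jasmonate (MeJA) on average over 24 h of sampling, while their average difference from mock stayed small with salicylic acid (SA), ethylene (ET) and abscisic acid (ABA). They were taken from a read count table of 35884 genes by a rule on the measured values. Counts were divided by the library total and multiplied by 1000000 (CPM), and a level was the log2 of CPM + 1. For each hormone and hour, the difference from mock was the mean level of the hormone libraries minus the mean level of the mock libraries of the same hour, and M was the mean of these differences over 1, 3, 6, 12 and 24 h. Of the 17566 genes with a mean mock level of at least 1 CPM, 745 had an M of at least 0.5 with MeJA, and 167 of those had an M between -0.5 and 0.5 with each of the other 3 hormones. The 150 with the largest M for MeJA were kept.

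The samples were leaves of 6-week-old plants of *Capsicum annuum* cultivar Bukang, sprayed at the stage of 6 true leaves and harvested in 26 groups of 3 libraries, 78 libraries in all. MeJA was given at 100 µM, SA as 5 mM sodium salicylate, ET as 5 mM ethephon, which breaks down to ethylene in the leaf, and ABA as 100 µM of the racemic hormone, and mock plants received distilled water. Each hormone was sampled at 1, 3, 6, 12 and 24 h, and mock at those hours and at 0 h. A replicate was a pool of leaves from 4 plants, so the spread below is that between pools. The treatments were kept apart in the growth chamber, so a treatment and its own incubation cannot be told apart.

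Jasmonates are made after wounding and attack by chewing insects. In Arabidopsis the active form, jasmonoyl-isoleucine, is bound by the receptor COI1, which sends the JAZ repressor proteins for degradation and so frees MYC2 and related transcription factors to switch on their targets. In plants of the nightshade family such targets include proteinase inhibitors that hinder digestion by insects, and the JAZ genes themselves, which soon dampen the response. SA is best known for defence against biotrophic pathogens, ET for ripening, ageing and defence together with jasmonates, and ABA for the closing of stomata and drought.

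The table gave each gene as an identifier of the CM334 genome annotation, which names a scaffold and a number on it (all begin with CA.PGAv.1.6., left out below), and paired none of them with a gene name. Of the 35884 identifiers, 0 were found in the RefSeq gene table used here. The 150 genes are therefore described by identifier and value, without functions or sequences, and neither jasmonate pathway genes nor leaf marker genes could be looked up. Library totals ran from 4470356 to 8851726 counts with a median of 6618439, and 3 counts corresponded to between 0.339 and 0.671 CPM. The mean correlation of a library with its 2 replicates was lowest for MeJA 3 h replicate 1, at 0.964, and had a median of 0.984 over all libraries. In such whole-leaf RNA, more cells that express a gene and more RNA per cell cannot be told apart. The MeJA libraries at 24 h held 66.0% of the counts of the mock libraries at 24 h. All of the 150 genes could be measured in nearly every library, with 0 to 3 of them at 0 counts in any 1 library.

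The rule set the average response, which is given here as a description. M for MeJA ran from 0.52 to 2.35 over the 150 genes with a median of 0.63, and the median over all 17566 genes was 0.04. Medians of M over the 150 genes were 0.20 for SA, 0.07 for ET and 0.18 for ABA. At the lower end the choice was narrow: the last gene taken, scaffold41.4, and the first left out, scaffold724.48, both had an M of 0.52. At the limit set for the other hormones, scaffold1178.29 was inside with 0.4998 for ET and scaffold479.28 was outside with 0.5054. Mean mock levels ran from 1.02 to 660 CPM with a median of 10.9 CPM, against 15.002 CPM over all 17566 genes.

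The rule fixed the average over the hours, and the course over the day was far from even. At 1, 3, 6, 12 and 24 h the median difference of the 150 genes from mock with MeJA was 0.76, 0.90, 0.31, 0.70 and 0.54. The group was thus high within the first hour, dropped back at 6 h and stood apart from mock again at 12 and 24 h. In the same order of hours, 135, 148, 105, 148 and 139 of the 150 genes were above mock. Of all 17566 genes, 50.2%, 51.0%, 52.8%, 64.8% and 53.5% were above mock. Differences of at least 1, a doubling of CPM + 1, were reached by 58, 63, 15, 47 and 18 of the 150. Over all genes the shares were 2.56%, 2.43%, 0.97%, 4.51% and 1.52%. At 6 h 7 of the 150 were lower than mock by at least 1, and 1.27% of all genes were. Over all 17566 genes the median difference with MeJA was 0.00, 0.01, 0.02, 0.14 and 0.03 at the 5 hours. The value at 12 h followed the scaling: with TMM-scaled library sizes it was 0.01 for all genes and 0.57 for the 150.

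**Figure D1:**
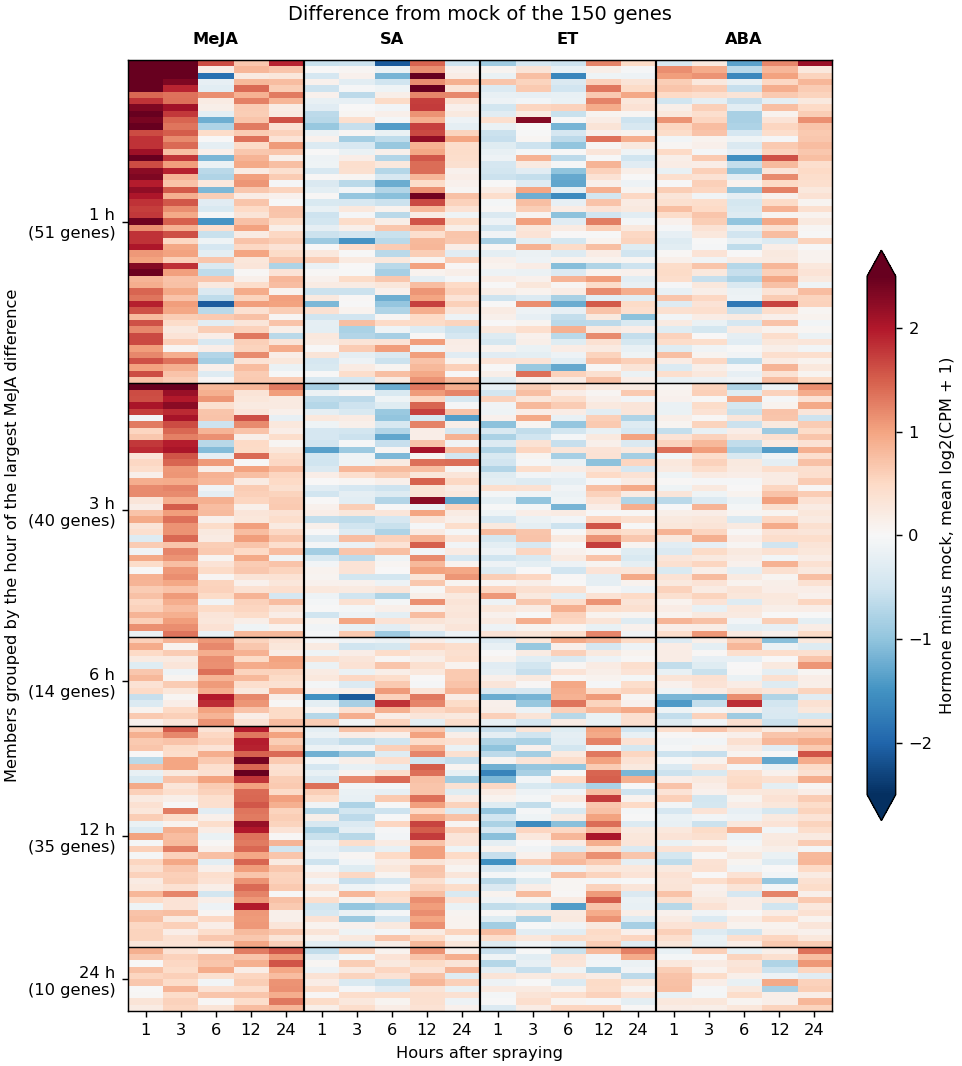
Difference from mock (colour, mean log2(CPM + 1) of 3 hormone libraries minus that of 3 mock libraries) of each of the 150 genes (rows) at 5 hours for MeJA, SA, ET and ABA, with genes grouped by the hour of their largest MeJA difference. The MeJA columns are strongest at 1 and 3 h, where the group medians were 0.76 and 0.90, and pale at 6 h, and SA and ET show a second band at 12 h.

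The levels in single libraries showed the same course. The median level over the 150 genes was 4.81, 4.72 and 4.80 in the MeJA libraries at 1 h, against 3.57, 3.70 and 3.60 in mock. At 3 h it was 4.78, 4.50 and 4.32 with MeJA and 3.47, 3.49 and 3.55 in mock. The groups did not overlap at either hour, nor at the later hours given next. The genes were picked for higher values with MeJA in these same libraries, so the separation is a description. At 6 h the MeJA libraries lay at 3.51, 3.63 and 3.68, just above mock at 3.38, 3.14 and 3.49. At 12 h they lay at 3.74, 4.15 and 3.71 and mock at 3.07, 3.04 and 3.26, and at 24 h at 4.42, 4.32 and 4.23, with mock at 3.65, 3.58 and 3.99. Replicate 2 at 12 h was the highest of its group, and mock replicate 3 at 24 h the highest of its own. At 12 h the library medians over all 17566 genes did not overlap either. They were 4.30, 4.45 and 4.25 with MeJA and 4.14, 4.13 and 4.19 in mock. At the other hours the medians over all genes overlapped.

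**Figure D2:**
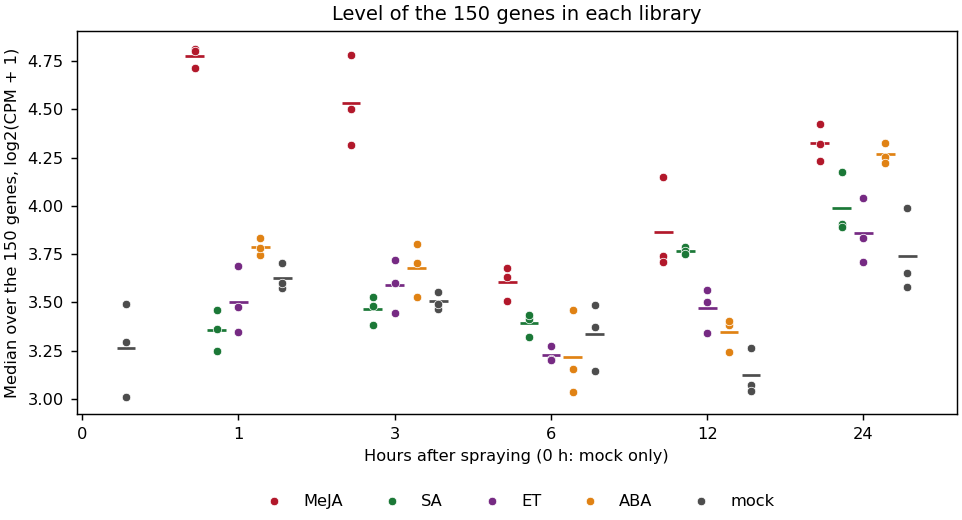
Median level of the 150 genes, log2(CPM + 1), in each of the 78 libraries (points, dash for the mean of 3) by hours after spraying and treatment. The MeJA libraries stand clear of all others at 1 and 3 h, the SA libraries lie between 3.75 and 3.78 beside 2 of the MeJA libraries at 12 h, and the ABA libraries reach 4.22 to 4.33 at 24 h.

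Each hour was also tested gene by gene with the quasi-likelihood test of edgeR and Benjamini-Hochberg adjustment at 0.05 over all genes of the fit (18349 with MeJA). Because the rule used these differences, the counts describe the list and support nothing. Higher with MeJA were 87 of the 150 genes at 1 h (6.67% of all genes tested) and 97 at 3 h (9.19%). Only 38 were higher at 6 h (5.41%), but 75 at 12 h (12.1%). The last hour, 24 h, had 53 (5.52%). At 6 h 16 of the 150 genes were lower with MeJA (4.67% of all genes), and at 24 h 2 were lower (6.43%), scaffold257.129 and scaffold793.54. In all, 140 genes were higher with MeJA at 1 or more hours, and 18 of these were also lower at another. Over all 18349 genes tested, 4654 were higher at 1 or more hours, and 1084 were called in both directions. Without replicate 2 of every group, 12 of the 150 genes were higher at 24 h in place of 53. Without MeJA 12 h replicate 2 alone, 57 were higher at 12 h in place of 75. Over all genes tested these counts fell as well, from 1012 to 252 and from 2226 to 1379. At 6 h 23, 18 and 19 of the 150 genes were higher without replicate 1, 2 or 3 of every group, and 7 were lower without replicate 3. Over all genes, 992 were higher at 6 h in the full fit and 560, 430 and 371 in these. Lower were 856 of all genes in the full fit and 340 without replicate 3. At 24 h 34 of the 150 were higher without replicate 1, where 575 of all genes were.

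Whether the difference from mock was the same at the 5 hours was tested as an interaction within the same fit. It varied with the hour for 97 of the 150 genes with MeJA, against 28.4% of all genes tested (quasi-likelihood test of edgeR, Benjamini-Hochberg). The test ran on the same libraries and hourly differences that the rule averaged, so this count, too, is a description of the list, and nothing is read from its distance to the share of all genes.

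Most genes were above mock at most hours, which a rule on the mean of these same differences favours. The counts by hour and by library are therefore a description of the list. With MeJA, 82 of the 150 genes were above mock at all 5 hours, 61 at 4 hours and 7 at 3 hours. Counted by library, 29 genes were above the mock mean of the hour in 15 of 15 MeJA libraries and 125 in 12 or more, and the fewest was 7 libraries. M stayed at 0.5 or more for 112, 117, 138, 114 and 136 genes when 1, 3, 6, 12 or 24 h was left out of the average. When the hour with a gene's own largest difference was left out, M was 0.5 or more for 61 genes and under 0.5 for 89, with a median of 0.47, so for most of the list the limit of the rule was met only with that hour.

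The genes were then grouped by the hour of their largest difference with MeJA. This grouping uses the same values, so the pattern within a class is a description. The class that peaked at 1 h was the largest, and 51, 40, 14, 35 and 10 genes peaked at 1, 3, 6, 12 and 24 h. The 51 genes of the 1 h class had median differences of 1.81, 1.03, -0.24, 0.67 and 0.52 at the 5 hours, so that at 6 h only 20 of them were above mock. The 40 genes of the 3 h class were less uneven, with 0.65, 1.18, 0.46, 0.54 and 0.43. The 35 genes of the 12 h class ran at 0.52, 0.60, 0.39, 1.36 and 0.59. In the 14 genes of the 6 h class the peak was 1.10, and in the 10 genes of the 24 h class 1.09.

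**Figure D3:**
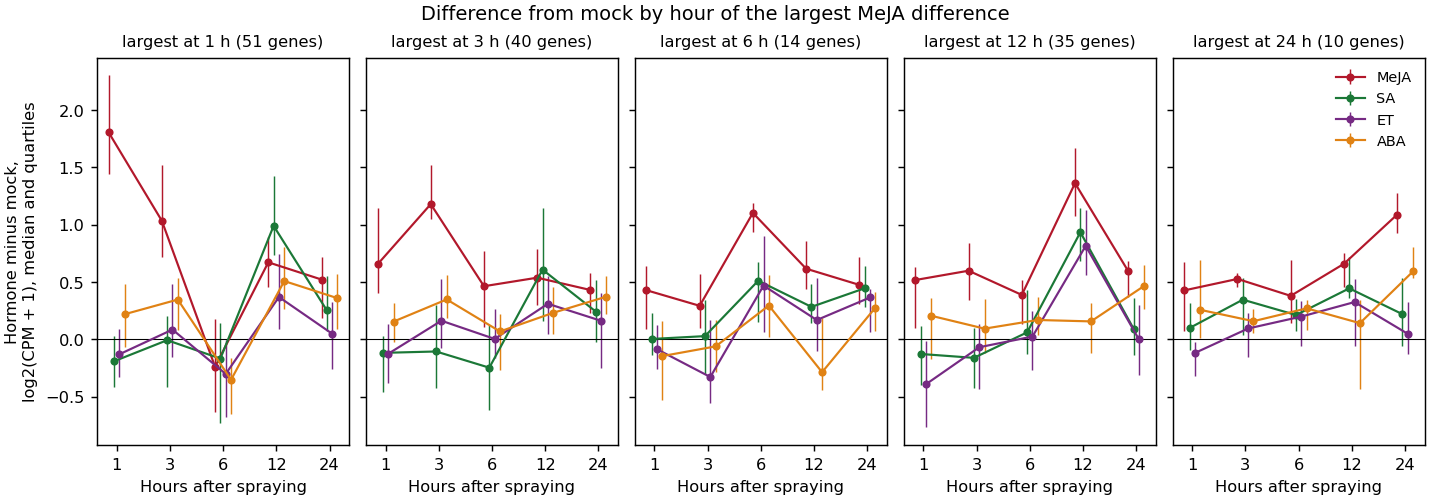
Median difference from mock (points, bars for the quartiles over genes, log2(CPM + 1)) at 5 hours with MeJA, SA, ET and ABA, in 5 classes of the 150 genes by the hour of their largest MeJA difference. In the class of 51 genes the MeJA line starts at 1.81 and lies at -0.24 at 6 h, and in the class of 35 genes SA and ET reach 0.93 and 0.82 at 12 h.

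The other hormones moved many of these genes at single hours, although the rule kept their averages small. With SA the median difference was -0.12, -0.04, -0.02, 0.80 and 0.25 at the 5 hours. At 12 h 139 of the 150 genes were above mock with SA, where 60.1% of all 17566 genes were. The median over all genes was 0.13 at 12 h and 0.19 at 24 h with SA, and with TMM-scaled library sizes the 150 genes had a median of 0.59 at 12 h and 0.07 at 24 h. With ET the median of the 150 genes was -0.17, 0.05, -0.02, 0.44 and 0.09, and the value at 24 h turned to -0.02 with TMM scaling. With ABA the median was 0.18, 0.24, 0.00, 0.25 and 0.40. At 24 h 136 of the 150 genes were above mock with ABA, where 54.0% of all genes were. The median over all genes was 0.03 there. All 4 hormones were set against the same mock libraries at each hour, so that a low or high mock group moves all of them together.

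In the tests by hour, which again describe the list at hours picked after seeing the values, 86 of the 150 genes were higher with SA at 12 h (23.3% of all genes tested), 58 were higher with ET at 12 h (28.4%) and 34 were higher with ABA at 24 h (4.59%). The ABA count at 24 h was 12 without replicate 1 of every group, 8 without replicate 2 and 47 without replicate 3. Over all genes, 858 were higher with ABA at 24 h in the full fit and 283, 181 and 981 in these. At 6 h 37 of the 150 genes were lower with SA (19.2%), and 37 were lower with ET (27.7%). At 1 or more of the 5 hours, 101 genes were higher with SA (37.1% of all genes) and 58 lower (37.9%). With ET 86 were higher (47.1%) and 73 lower (46.8%), and with ABA 72 were higher (25.8%) and 24 lower (25.7%). Without replicate 1 or 2, 37 and 40 were higher with ABA at 1 or more hours, and without replicate 3, 14 were lower. Over all genes, 2824 and 2942 were higher in place of 4822, and 3575 were lower in place of 4817. Both directions were met in 42 of the 150 genes with SA, 43 with ET and 18 with ABA. Over all genes tested these were 1470 of 18569, 2041 of 18757 and 1040 of 18713. Of the 150 genes, 15 passed the test at no hour with SA, ET or ABA. The same count over all genes was not made, so nothing is read from it. The rule makes the list one raised by MeJA alone as an average over the 5 hours, and sets nothing for single hours.

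The test for a difference that varied with the hour, again a description since the rule averaged these differences, gave 95 of 150 genes with SA (46.4% of all genes tested), 92 with ET (51.1%) and 66 with ABA (31.2%), by the quasi-likelihood test of edgeR, Benjamini-Hochberg adjusted. For ABA it gave 38 without replicate 1 of every group and 44 without replicate 2. Over all genes the ABA count was 5831 in the full fit and 2798 and 3440 in these. In the 1 h class the other hormones also lay below mock at 6 h. There the median differences were -0.17 for SA, -0.30 for ET and -0.35 for ABA, and 20, 13 and 6 of the 51 genes were above mock. Over all genes the shares above mock at 6 h were 50.7%, 50.5% and 47.0%. At 12 h 48 of these 51 genes were above mock with SA, with a median difference of 0.99. In the 12 h class SA and ET stood at 0.93 and 0.82 at the peak hour, while ABA was at 0.16.

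Setting MeJA against each other hormone directly left the mock libraries out. MeJA minus SA had a median over the 150 genes of 0.89, 0.97, 0.28, -0.00 and 0.26 at the 5 hours. At 12 h, 75 of the 150 genes were higher with MeJA than with SA (50.0% of all genes), and at 3 h 141 (57.8%). MeJA minus ET had a median over the 150 genes of 0.98, 0.85, 0.31, 0.34 and 0.41. Higher with MeJA were 140 of them at 1 h (53.8% of all genes) and 145 at 3 h (50.6%). MeJA minus ABA was 0.72, 0.67, 0.23, 0.48 and 0.15 for the 150 genes. Higher with MeJA were 147 of them at 3 h (47.8% of all genes) and 92 at 24 h (50.5%). The separation of MeJA from the other hormones was therefore clearest at 1 and 3 h. No test was made of these differences, since the rule used both sides of each.

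In mock leaves the 150 genes had a course of their own. Their levels differed between 1, 3, 6, 12 and 24 h for 132 of 149 genes tested, against 71.6% of all genes (quasi-likelihood test of edgeR, Benjamini-Hochberg). The remaining gene, scaffold403.14, did not pass the filter on low counts in the mock fit. The distance between the highest and lowest mock hour from 1 to 24 h had a median of 1.22 on the log2 scale in the 150 genes and 0.87 in all genes. Mock was lowest at 12 h for 57 of the 150 genes, where 10.9% of all genes had their lowest level, and highest at 24 h for 46, where 12.5% of all genes had their highest. For 40 of the 150 genes mock was highest at 6 h, as it was for 20.8% of all genes. The mock levels of 1 to 24 h were part of the differences that the rule averaged, and a low one raises them, so these counts are a description.

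The mock level at 0 h entered the rule only through the limit of 1 CPM, while that at 24 h was also part of the averaged differences. Between mock leaves at 24 h and at 0 h, 63 of 149 genes were higher at 24 h (16.9% of all genes) and 4 were lower (17.5%), by the quasi-likelihood test of edgeR, Benjamini-Hochberg adjusted. Without mock 24 h replicate 3, the library with the highest level of the 150 genes in its group, 46 were higher. Without replicate 1 or 3 of every group 42 and 38 were. Over all genes the counts in these 3 fits were 2523, 1788 and 2045 in place of 3009. The median of the group means was 3.68 at 24 h and 3.33 at 0 h in mock.

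The gene with the largest M, scaffold702.9 (M = 2.35), had 112, 135 and 132 CPM with MeJA at 1 h, against 10.98, 5.15 and 8.09 CPM in mock. At 3 h it had 236, 131 and 102 CPM with MeJA, against 8.44, 15.5 and 9.58 CPM in mock. At 12 h it had 2.06, 11.6 and 3.997 CPM with MeJA, against 1.55, 3.17 and 3.41 CPM in mock. At 1 and 3 h each MeJA library thus lay far above each mock library, and at 12 h the ranges overlapped. The MeJA difference was 3.86 at 1 h and 0.68 at 12 h. It also held the largest difference of any of the 150 genes with ABA, 2.14 at 24 h, where ABA gave 32.1, 32.4 and 31.7 CPM and mock 3.10, 7.20 and 11.6 CPM. MeJA at that hour gave 19.9, 34.4 and 29.4 CPM, so that MeJA and ABA overlapped.

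The next gene, scaffold929.8 (M = 1.68), led the 3 h class with 36.7, 36.5 and 22.3 CPM with MeJA at 3 h, against 3.90, 4.17 and 2.15 CPM in mock. It stayed above mock at every hour, with differences of 2.55, 2.90, 0.82, 0.82 and 1.30. At 24 h the MeJA libraries had 5.37, 5.83 and 6.03 CPM and mock 2.21, 1.12 and 1.99 CPM, still without overlap.

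The 1 h class was led by scaffold1243.4, whose group means in mock leaves were under 1 CPM at all hours except 6 h, where the mean was 4.57 CPM. It had 48.9, 49.0 and 40.9 CPM with MeJA at 1 h and 1.16, 0.156 and 0.674 CPM in mock, of which the lowest was under the level of 3 counts. At 6 h the order was turned, with 0.786, 0.164 and 0.472 CPM with MeJA and 2.26, 5.35 and 6.10 CPM in mock. The MeJA value of 0.164 CPM was under the level of 3 counts. The mean over all mock libraries was 1.09 CPM, so the gene passed the limit of 1 CPM only through mock at 6 h. Its low difference at 6 h is thus tied to how it entered the list. This gene thus had the largest single difference of the 150, 4.87 at 1 h, and a difference of -1.86 at 6 h. SA brought it to 7.99, 5.16 and 6.76 CPM at 12 h, where mock had 0.00, 0.453 and 0.546 CPM and MeJA 0.172, 1.29 and 0.333 CPM. Of these, 0.00 in mock and 0.172 and 0.333 CPM with MeJA were under the level of 3 counts.

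In the 12 h class scaffold694.92 had the largest peak, with 152, 283 and 129 CPM with MeJA against 19.9, 22.04 and 28.9 CPM in mock at 12 h. At 1 h MeJA gave 157, 141 and 156 CPM and mock 166, 171 and 181 CPM. The mock level was at its lowest at 12 h and reached 196, 207 and 290 CPM at 24 h. The difference of 2.87 at 12 h therefore stood where the mock level was low, and the 3 MeJA libraries were within the range of the mock libraries of other hours. With ET the gene was lower than mock at 1 h, with 50.9, 52.3 and 60.8 CPM and a difference of -1.64.

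The leaders of the smaller classes had low mean mock levels, 3.66 CPM for scaffold1774.7 and 2.54 CPM for scaffold1432.27. Those of scaffold1243.4 and scaffold929.8, which led the 1 h and 3 h classes, were also low, at 1.09 and 3.26 CPM. At 6 h scaffold1774.7 had 6.60, 7.55 and 8.03 CPM with MeJA against 0.705, 1.12 and 1.68 CPM in mock, a difference of 1.97. Its mock libraries scattered widely at other hours, with 11.4, 2.34 and 5.86 CPM at 3 h. At 24 h scaffold1432.27 had 20.4, 18.9 and 16.0 CPM with MeJA against 8.26, 2.98 and 6.51 CPM in mock, a difference of 1.57. ABA gave 12.5, 13.4 and 12.3 CPM of this gene at 24 h, also above every mock library.

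The gene with the highest mock level, scaffold631.24 (M = 0.68), was measured with little spread. MeJA gave 1429, 1406 and 1449 CPM at 1 h and mock 754, 804 and 738 CPM. At 12 h MeJA gave 428, 383 and 462 CPM, SA 1094, 867 and 1130 CPM, and mock 340, 393 and 365 CPM. The SA difference at 12 h was thus 1.48 where that of MeJA was 0.21, the reverse of 1 h, where MeJA stood at 0.90 and SA at 0.02. At the other end, scaffold403.14, with a mean mock level of 1.02 CPM, had 1.41, 1.57 and 1.96 CPM with MeJA at 1 h and 0.832, 0.780 and 0.674 CPM in mock. Its MeJA differences lay between 0.42 and 0.70 at the 5 hours.

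The largest single differences with SA and ET belonged to genes that MeJA raised early. With SA scaffold763.11 had 194, 158 and 167 CPM at 12 h, against 22.7, 30.8 and 27.0 CPM in mock, a difference of 2.65. With MeJA it had 302, 293 and 300.1 CPM at 1 h, against 61.2, 44.2 and 48.2 CPM in mock, and 56.1, 96.4 and 70.1 CPM at 12 h. SA at 12 h thus lay above MeJA at 12 h in each library and below MeJA at 1 h. With ET scaffold845.23 had 20.6, 25.4 and 26.4 CPM at 3 h, against 4.71, 3.67 and 3.91 CPM in mock, a difference of 2.30. MeJA gave this gene 63.6, 68.9 and 59.5 CPM at 1 h, where mock had 19.5, 8.74 and 8.76 CPM. MeJA gave 18.01, 11.3 and 10.4 CPM at 3 h, so ET was higher than MeJA there. At 6 h it was lower with MeJA, with 3.61, 1.81 and 1.57 CPM against 5.08, 6.35 and 8.62 CPM in mock.

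**Figure D4:**
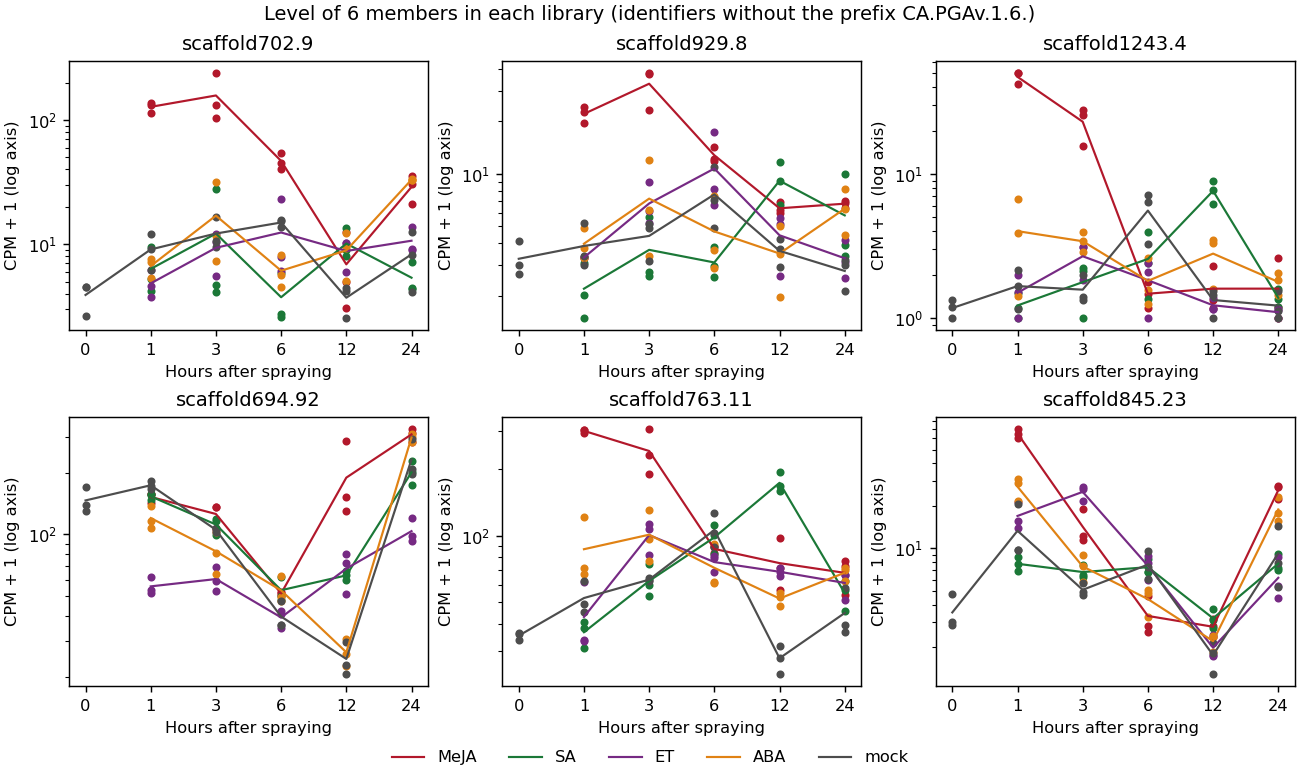
Level (CPM + 1, log axis) of 6 of the 150 genes in each library (points) by hours after spraying, with lines through the group means of MeJA, SA, ET, ABA and mock. The MeJA mean stands above all others at 1 h in 5 of the 6 genes, scaffold694.92 departs from mock at 12 h, and scaffold763.11 shows its SA points of 158 to 194 CPM at 12 h.

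The 150 genes lay on 131 scaffolds of the assembly, 114 of them with 1 gene of the list, 15 with 2 and 2 with 3. No pair had consecutive identifier numbers, and 7 pairs on 1 scaffold were within 5 numbers of each other. The closest pair was scaffold702.7 and scaffold702.9, the gene with the largest M. Near copies of a gene can share reads, and how reads that fitted several places were counted is not given in the sources used here.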

How the data were processed

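RNA of 78 leaf libraries was sequenced from strand-specific libraries. Per the labels and the study's methods, the authors trimmed reads with cutadapt 1.15 and Trimmomatic 0.38, checked them with FastQC 0.11.8, mapped them to the CM334 genome with HISAT2 and counted them with HTSeq 0.11.2. The deposited table holds raw read counts per gene, with no normalization, and the strand setting of the counting is not given in the sources used here.

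From these counts the list of 150 genes was made with a pseudocount of 1 on CPM by column total. Tests used edgeR 4.0.16 in R 4.3.3 (filterByExpr, TMM, glmQLFit, glmQLFTest) on the 30 libraries of each hormone and mock from 1 to 24 h, or on the 18 mock libraries, with Benjamini-Hochberg adjustment over all genes of a fit and a threshold of 0.05. The numbers of genes tested were 18349 for MeJA, 18569 for SA, 18757 for ET, 18713 for ABA and 17788 for mock. All 150 genes passed the filter in the 4 hormone fits and 149 in the mock fit. The members and lists were chosen with earlier results of these data known. Genes named with values were the 2 with the largest M, the leader at each hour, those with the highest and lowest mock level, those with the largest single difference with SA, ET and ABA, and those at the limits of the rule. The 2 genes lower with MeJA at 24 h and the closest pair on a scaffold were named after their values were seen.

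Alternatives were other scalings (TMM for the list, RLE for the tests), pseudocounts of 0.1 and 5, thinning every library to 4470356 counts, no filter, DESeq2 1.42.0, the replicate number as a block, fits on the 6 libraries of an hour, and leaving out replicates or single libraries. The fits were tested on simulated data. At the lowest total, 3 counts were 0.671 CPM, which covers counting error only.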

Additional observations from a re-analysis of the deposited data

Results flagged for a closer look

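The hormone effect differed between the 5 time points, by the interaction test of edgeR with Benjamini-Hochberg adjustment, for 97 genes with MeJA, 95 with SA, 92 with ET and 66 with ABA. The shares over all genes tested were 28.4%, 46.4%, 51.1% and 31.2%. The 4 tests share the same mock libraries and use the hourly differences that the rule averaged, so the counts describe the list and are no independent finding about it.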

How the results depend on the processing

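With a pseudocount of 5, 111 genes met the rule in place of 167 and 80 of the 150 genes stayed in the list, and with the median over the hours in place of the mean 88 stayed. With TMM scaling 125 stayed, which was 83.3% of the 150 and 88.7% of the new list. All 150 kept an M for MeJA above 0 in each of these. The rule nearly fixed this, since each had an M of at least 0.52 in the same libraries, so it says nothing of stability. Leaving out replicate 1, 2 or 3 of every group, or a single library that stood apart, gave 138 to 289 genes that met the rule, 89 to 140 genes still in the list, and mostly fewer calls: 18 to 40 higher and 7 to 18 lower with MeJA at 6 h, 12 to 65 higher with MeJA at 24 h, 38 to 50 that varied with the hour for ABA, 37 to 71 higher and 14 to 24 lower with ABA at 1 or more hours, and 38 to 57 higher in mock at 24 h than at 0 h. Such fits hold fewer libraries, and without a replicate number most counts over all genes fell as well. Of 181 alternative counts, 16 moved by over 1.5 times and 13 of these came from leaving out a replicate number. For the named genes, M moved in 8 of 108 values and was never reversed, which the rule likewise favoured. The causes were not tested. Same-numbered hormone and mock libraries of an hour deviated little together. Their mean correlation was -0.01 for SA to 0.0229 for ABA, with 0 to 2 of 15 pairs over 0.1 per hormone. With 3 libraries per group this does not settle whether the numbers pair the samples, and the main fits left the number out. With the replicate number as a block, 97 genes varied with the hour for MeJA, 96 for SA, 93 for ET and 72 for ABA. Over all genes the counts with the block were 5102, 8590, 9775 and 6174, in place of 5206, 8612, 9577 and 5831. Genes near the limit of 1 CPM rest on few counts in mock, and small differences there were not resolved at this depth. A large one, such as 4.87 for scaffold1243.4 at 1 h, stood clear of the mock libraries.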
